A study of Mus musculus with 15 samples.

Results

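Bone morphogenetic protein (BMP) signalling was followed in sections of mouse embryos through 10 genes: the ligands Bmp2, Bmp4, Bmp5 and Bmp7, the secreted inhibitor Nog (noggin), and the target genes Id1, Id2, Id3, Msx1 and Msx2. They were taken by name and are 10 of the 30534 genes in the tables, and all 10 were detected in all 11 transcript libraries. Sections were measured by deterministic barcoding in tissue, in which barcodes flowed over a frozen section in crossed microfluidic channels give every crossing, a square pixel, its own barcode pair. Libraries came from embryonic day 10 (E10) with pixels 10 µm wide (2 libraries), 25 µm wide (1) and 50 µm wide (3), from E11 at 10 µm (2) and 25 µm (2), and from E12 at 50 µm (1). The labels give no genotype, strain or treatment, and neither the embryo nor the body region of a section is given. Replicates may therefore be sections of 1 embryo, and p-values measure the spread between these libraries only.

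BMP ligands are secreted, bind paired type I and type II receptor kinases, and act through Smad1, Smad5 and Smad9 with Smad4. Noggin binds ligands outside the cell and keeps them from the receptors. Id proteins lack a DNA-binding domain and hold back basic helix-loop-helix factors, and Msx1 and Msx2 are homeodomain repressors of dorsal neural tube, limb and face. In the embryo at these stages BMPs act in the heart, limb buds, dorsal neural tube, surface ectoderm and forming skeleton.

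The promoters of Msx1 and Bmp4 are shown because the results below turn most on this target and this ligand. They are RefSeq sequence of build GRCm38.p6, on the minus strand that carries both genes. The table held 6 of the 10 genes. Its windows for Id2, Id3 and Msx2 lie inside the GENCODE gene, that for Bmp5 reaches 1 base into it, and none of these is shown. Capitals mark the motifs searched on both strands: GGCGCC and GCCGNCGC, to which Smad proteins are known to bind, and CCAAT, the site of nuclear factor Y. The Msx1 promoter held CCAAT beginning 91 and 54 bases before the start of the transcript and neither Smad motif, and the Bmp4 promoter held none of the 3. Of the windows not shown, that of Id2 held GGCGCC beginning 231 bases before the start, and that of Msx2 held GCCGNCGC beginning 87 bases before it. Both also held CCAAT, and those of Id3 and Bmp5 held none of the 3. Of 32851 promoter windows of the same length, 9.59% held GGCGCC, 6.89% held GCCGNCGC and 33.85% held CCAAT.
Msx1, 250 bases before the start, chr5:37824586-37824835: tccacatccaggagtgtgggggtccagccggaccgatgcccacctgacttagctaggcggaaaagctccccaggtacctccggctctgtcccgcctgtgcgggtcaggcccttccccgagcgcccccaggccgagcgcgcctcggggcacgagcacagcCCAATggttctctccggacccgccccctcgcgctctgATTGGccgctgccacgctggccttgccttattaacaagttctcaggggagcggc
Bmp4, 250 bases before the start, chr14:46390670-46390919: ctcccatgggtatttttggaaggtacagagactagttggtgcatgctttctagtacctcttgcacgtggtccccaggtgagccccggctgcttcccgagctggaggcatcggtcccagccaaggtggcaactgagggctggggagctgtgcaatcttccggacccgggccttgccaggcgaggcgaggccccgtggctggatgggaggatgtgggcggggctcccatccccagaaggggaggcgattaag

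Genes lie at these places in GRCm38 (GENCODE M21): Bmp2 at chr2:133552159-133562885, Bmp4 at chr14:46383520-46390669, Bmp5 at chr9:75775364-75900310, Bmp7 at chr2:172868012-172940321 and Nog at chr11:89300638-89302332. Id1 lies at chr2:152736251-152737410, Id2 at chr12:25093799-25097140, Id3 at chr4:136143497-136145755, Msx1 at chr5:37820485-37824583 and Msx2 at chr13:53466884-53473074. Bmp4 overlaps the annotated genes Gm15217 and Gm15222, and Bmp5 overlaps Gm47723 and Gm26903. Whether counting used strand is not given in the sources used here, so reads of these neighbours cannot be told from those of Bmp4 and Bmp5.

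Tissue pixels (total count 0.1 or more of the library's 95th percentile) numbered 829 to 2271 per library and held 1.56 to 12.0 M counts (M, 1e6 counts), with a median of 843.5 to 11332 counts per pixel. E11 10 µm replicate 2 stood apart: its 8 heart muscle markers summed to 5670 CPM (each library scaled to a sum of 1e6) and its 7 neural progenitor markers to 120 CPM, the highest and the lowest of all libraries, and its 7 liver markers held 3564 CPM. At the other end, E10 10 µm replicate 2 held 16.4 CPM of heart markers, with 1 of 8 at 0. Marker levels thus differed between sections of the same stage and width, and in whole libraries fewer cells of a type and less RNA per cell cannot be told apart.

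Among the ligands, Bmp4, which patterns mesoderm, limb and ectoderm, was spread over a 3.18-fold range, and Bmp7, made in heart, kidney and ectoderm, hardly varied. Bmp7 ran from 18.1 CPM in E11 25 µm replicate 2 to 25.1 CPM in E10 10 µm replicate 1, a 1.39-fold range over all 11 libraries. Bmp4 ran from 27.0 CPM in E10 50 µm replicate 1 through a median of 53.8 to 85.8 CPM at E12, and it was 70.1 ± 0.325 CPM (SD, n = 2) in E11 25 µm. Bmp5, a ligand of skeletal and lung mesenchyme, was thin, at 0.640 to 8.31 CPM from 262 counts in all, with only 1 count in E10 25 µm.

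Bmp2, a ligand of heart valve, bone and limb, was counted at 3.76 ± 1.49 CPM in E10 50 µm (n = 3; 4.05, 2.15 and 5.08 CPM), 2.56 in E10 25 µm, and 3.50 and 3.96 in E10 10 µm. At E11 it held 1.17 and 3.65 CPM at 10 µm and 2.76 and 5.34 CPM at 25 µm, and at E12 it held 21.2 CPM. The E12 value lay above all 10 other libraries. Nog held 4.17 and 10.8 CPM in E10 10 µm and 1.56 and 1.46 CPM in E11 10 µm (4 counts in each), and 4.34 to 7.85 CPM in the other libraries.

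Of the targets, Msx1 varied most, by 40.0-fold, and Id1 least, by 2.07-fold. Msx1 held 147 and 83.6 CPM in E10 10 µm, 233 in E10 25 µm, and 84.6 ± 11.0 CPM in E10 50 µm (n = 3). At E11 it held 151 and 5.83 CPM at 10 µm and 148 and 94.0 CPM at 25 µm, and at E12 75.5 CPM. The low value, from 16 counts in 0.829% of pixels, belongs to the heart-rich E11 10 µm replicate 2, where Msx2 was also lowest, at 2.55 CPM. Msx2 lay between 7.99 and 16.6 CPM in the 6 E10 libraries, at 12.8 CPM in E11 10 µm replicate 1, and between 3.65 and 4.77 CPM in E11 25 µm and E12. Id2 ran from 70.9 to 202 CPM, Id1 from 34.1 to 70.7 CPM and Id3 from 137 to 425 CPM, with the Id3 maximum in E10 10 µm replicate 2.

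**Figure D1:**
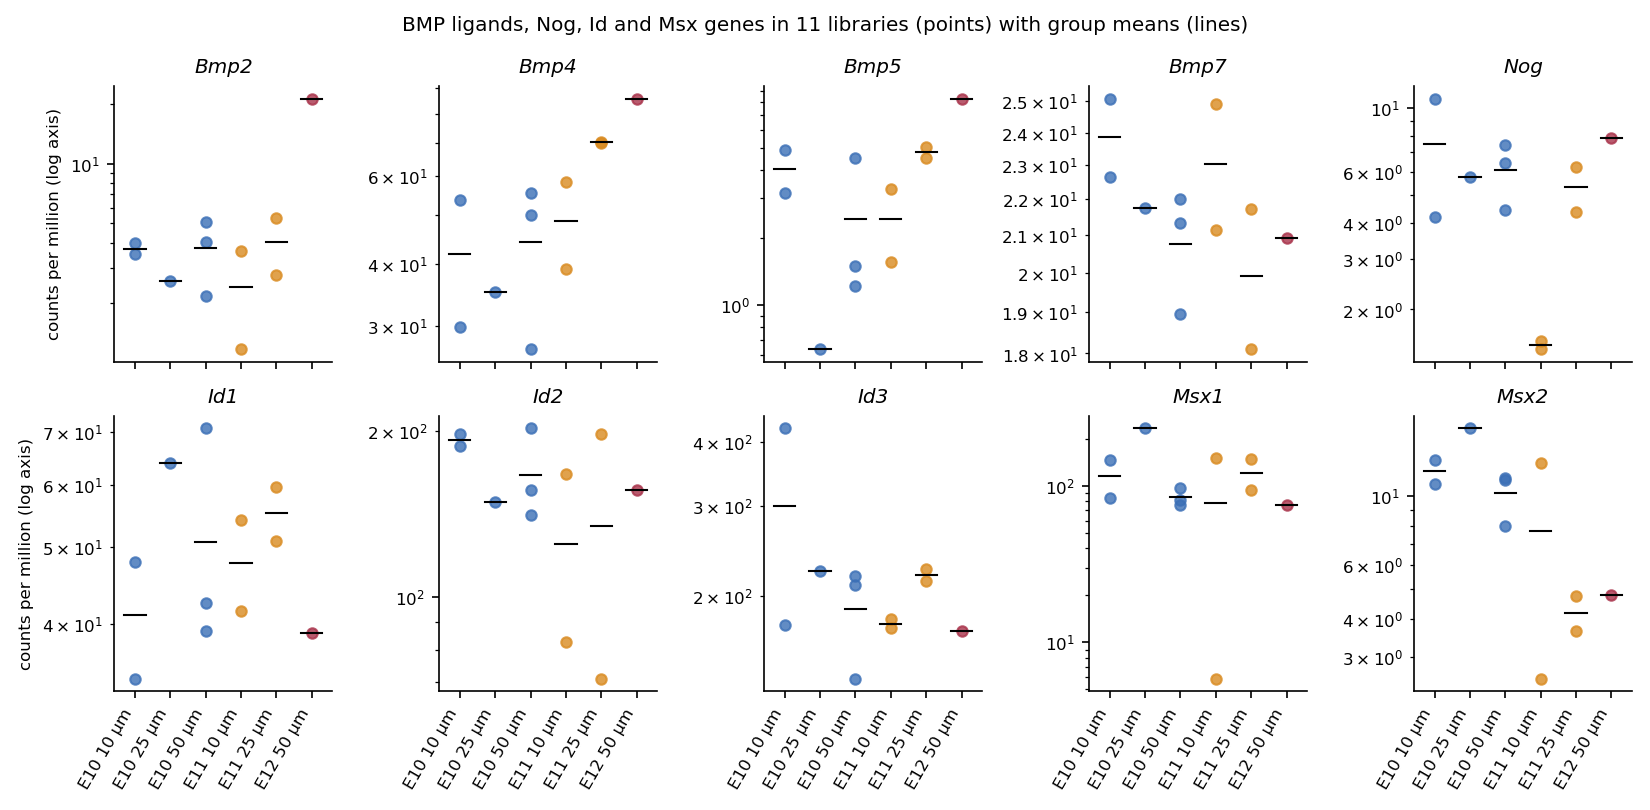
Level of each of the 10 genes in the tissue pixels of every library, in CPM on a log axis; points are libraries, lines are group means, and colours mark stage. Bmp7 lies within 18.1 to 25.1 CPM throughout, Bmp2 is highest at E12 (21.2 CPM), and Msx1 has 1 low library at E11 (5.83 CPM).

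At E12, Bmp2 was higher than in the 3 E10 libraries of the same pixel width, by 2.46 on the log2 scale (standard error 0.58, edgeR quasi-likelihood test, adjusted p = 0.0485), and it was the only member called, beside 1.93% of all 18233 genes tested that were called higher. The same call fell on Gdf5, a ligand of joint and cartilage and 1 of 33 tested genes of a BMP pathway list, with a log2 difference of 4.04 (standard error 0.83, edgeR adjusted p = 0.0274). Gdf5 held 9.69 CPM at E12 against a mean of 0.557 CPM in E10 50 µm, but the single E10 25 µm library already held 7.675 CPM. The other members differed by -1.14 (Msx2, edgeR adjusted p = 0.496) to 1.72 (Bmp5, 0.297), with Bmp4 at 0.90 (0.371), Nog at 0.33, Bmp7 at -0.03, Id1 at -0.42, Id2 at -0.13, Id3 at -0.17 and Msx1 at -0.21. Levels lay outside the E10 range for 7 of 10 members (all but Bmp7, Id2 and Id3), beside 62.9% of all genes tested. The E12 section also held other tissue: all 7 liver markers were higher (median log2 difference 10.39, 1 of 7 called), 6 of 7 limb markers were higher (median 1.76, 1 called), and all 7 neural progenitor markers were lower (median -3.77, none called). Of the cartilage and sclerotome markers, 4 of 5 tested were higher (median 0.378, none called). That list summed to 816 CPM at E12, the highest of all libraries, against 407 to 508 CPM in E10 50 µm. More calls fell on red cell markers (3 called higher, 1 lower) and epithelium markers (2 of 8 called higher). The red cell list summed to 72602 CPM at E12, against 16207 to 31446 CPM in E10 50 µm. The part of these tissues in the Bmp2 difference was not tested. The Bmp2 call rests on a single E12 library and was lost without E10 50 µm replicate 1 (edgeR adjusted p = 0.145), 2 (0.122) or 3 (0.120), without E11 25 µm replicate 1 (0.0864) or 2 (0.0892), and when all pixels were used (0.064). That of Gdf5 was lost in the same 5 omissions (edgeR adjusted p from 0.0682 to 0.115).

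No member passed in the other comparisons of whole libraries. For E11 against E10 over 10 and 25 µm, 3.6% of genes were called (656; 4217 at an unadjusted p under 0.05), and the members' median log2 difference was -0.14 against 0.05 over all genes. In that comparison Bmp4 differed by 0.70 (edgeR adjusted p = 0.231), Msx2 by -1.23 (0.135), Nog by -1.10 (0.211), Bmp5 by 1.18 (0.413) and Msx1 by -0.67 (0.675). The others lay between -0.31 (Id3) and 0.13 (Bmp2), with Bmp7 at 0.01, Id1 at 0.10 and Id2 at -0.29. Smad1, which carries the signal to the nucleus (-1.35, edgeR adjusted p = 0.0311), and Twsg1, an extracellular modulator of BMP binding (-0.98, 0.0442), were lower at E11. Those were 2 of 33 pathway genes tested, kept in 8 and 6 of 14 alternatives. The single E10 25 µm library held the highest level of both (Smad1 102 CPM, Twsg1 63.3 CPM). Being alone in its group, it could not be left out, so dependence on it was not tested. Smad1 was lost without either E10 10 µm replicate, E10 50 µm replicate 1 or 3, E11 10 µm replicate 2 or E11 25 µm replicate 1 (edgeR adjusted p from 0.0505 to 0.0771). Twsg1 was lost without any of these, E10 50 µm replicate 2 or E11 10 µm replicate 1 (0.0607 to 0.117).

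At 10 µm alone 3.33% of genes were called between E11 and E10 (608; 3682 unadjusted), and Nog was lower at E11 by 2.30 on the log2 scale (standard error 0.66, edgeR adjusted p = 0.0785). That rests on only 4 Nog counts in each E11 10 µm library, against 50 and 57 in E10 10 µm. The other 9 members differed by -0.79 (Id3) to 0.20 (Bmp4 and Id1), and libraries did not overlap for 2 of 10 members (Nog and Id2), beside 49.2% of all genes. Between widths, 0.11% of genes were called at E10 (10 against 50 µm; 20 genes, 1978 unadjusted) and 2.07% at E11 (10 against 25 µm; 378 genes, 2094 unadjusted). Members differed by -0.28 (Id1) to 0.73 (Bmp5) between widths at E10 and by -1.92 (Nog, edgeR adjusted p = 0.218) to 0.74 (Msx2) at E11. The difference between the stage changes at 10 and at 25 µm was called in 0.137% of genes (25; 1540 unadjusted) and in no member, also by edgeR, the members lying between -3.81 (Bmp5) and 1.09 (Msx2). For Msx1 and Msx2 this rested on 1 library. Without E11 10 µm replicate 1, which leaves the heart-rich section alone in its group, Msx1 passed over both widths (log2 -2.50, edgeR adjusted p = 0.00123), at 10 µm (-4.28, 0.00124) and between widths at E11 (-4.46, 0.00337), and Msx2 passed over both widths (-2.0, 0.011). Without E11 10 µm replicate 2 instead, Msx1 changed sign, from -0.60 to 0.35 at 10 µm and from -0.78 to 0.16 between widths at E11.

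Within sections, Msx1 was the most spatially patterned of the genes. Moran's I, which is above 0 where neighbouring pixels are alike, had a median of 0.295 for Msx1 (0.103 to 0.520) over the 10 libraries where it was seen in at least 5% of tissue pixels, at percentiles 98.3 to 99.9 of all such genes. The highest values came from E12 (0.520) and E11 25 µm (0.470 and 0.438). Bmp4 had a median of 0.163 in 9 libraries (median percentile 96.2), then Id2 (0.1) and Id3 (0.0872) in all 11, and then Bmp7 (0.0457, 7 libraries) and Id1 (0.0425, 11 libraries). Bmp2 reached 5% of pixels in 3 libraries (median 0.169), Msx2 in 4 (0.0250), Nog in 2 (0.0324) and Bmp5 in none, and the value also depends on how deeply a gene is counted.

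At E12 and in E11 25 µm, Msx1 was concentrated in few places, though blocks ranked on a gene's own level hold an excess of its counts in any case. Tissue was divided into blocks of 5 by 5 pixels, and the 10% of blocks richest in Msx1 held 75.0% of its counts at E12, 55.8% and 52.1% in E11 25 µm and 42.7% in E11 10 µm replicate 1. At E10 they held 27.3% and 36.3% at 10 µm, 31.5% at 25 µm and 19.6% to 26.7% in the 3 libraries at 50 µm. E11 10 µm replicate 2 held 68.8%, but of only 16 counts. Those E12 blocks were 6 of 63 and held 6.26% of all counts of the section, and 23 of the 63 blocks held no Msx1 count. In the E12 block with the highest Msx1 level (24 tissue pixels), Msx1 had 138 counts, or 914 CPM, and Bmp4 80 counts. The 10% of blocks richest in Bmp4 held 31.0% of its counts at E12, 28.8% and 38.0% in E11 25 µm and 44.1% in E11 10 µm replicate 1. At E10 they held 20.7% and 36.5% at 10 µm, 39.6% at 25 µm, and 33.3%, 18.3% and 23.7% at 50 µm. Msx1 was thus not above Bmp4 in every E10 section, nor in E11 10 µm replicate 1. Msx2 also held 75.0% at E12, from 31 counts.

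**Figure D2:**
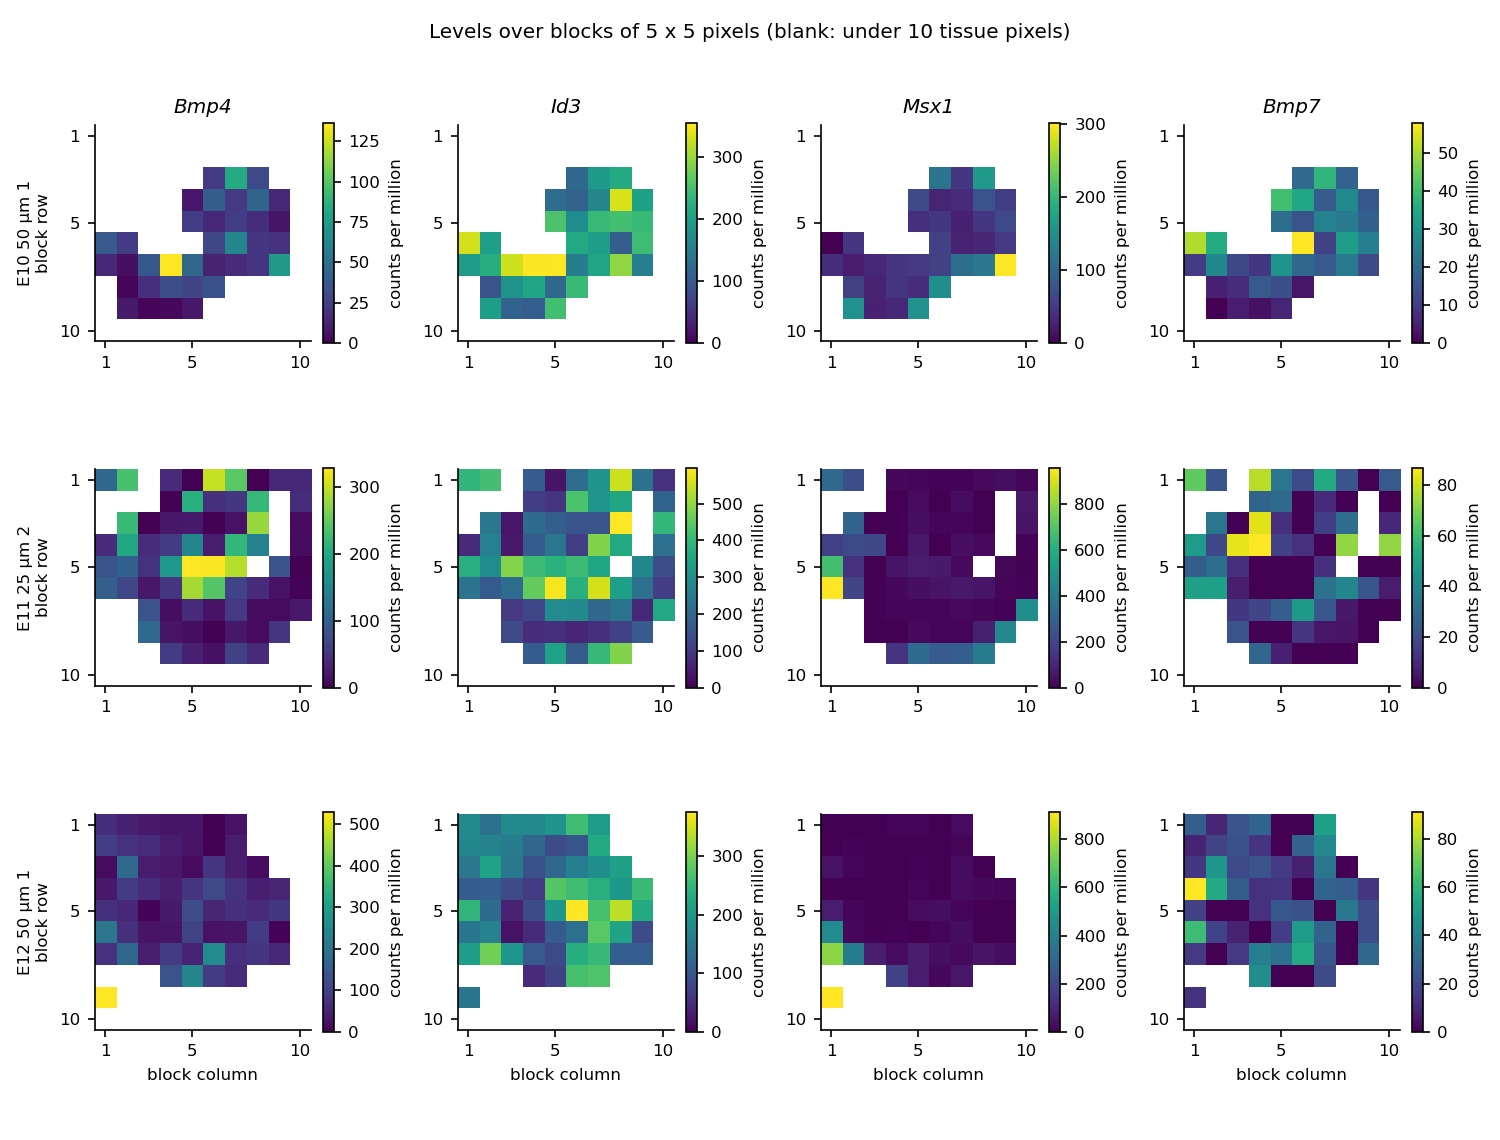
Maps of Bmp4, Id3, Msx1 and Bmp7 in CPM per block of 5 by 5 pixels in an E10 50 µm, an E11 25 µm and the E12 50 µm section, each panel with its own colour scale; blank blocks hold under 10 tissue pixels. Msx1 at E12 lies in few blocks, with a highest block of 914 CPM.

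The places of expression were read from marker-high pixels: for each of 10 marker lists that hold no member, the top 10% of tissue pixels by list score, in libraries where the score itself was spatially patterned. A pixel can hold several cells or parts of cells, so these are regions rich in a marker list and not cell types. Counts were summed over the marker-high and over the other pixels of a library and compared with the library as block. Bmp4 and Bmp7 each changed in 4 of the 10 lists, more than any other member.

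Epithelium marker-high pixels (lists of keratins, Epcam and the like; 9 libraries) held more of both Bmp4 and Bmp7. Bmp4 was higher in 9 of 9 libraries, with 36.0 to 177 CPM (median 94.6) in marker-high pixels against 25.3 to 83.3 (median 47.4) in the others, a log2 difference of 0.81 (standard error 0.12, edgeR adjusted p = 6e-05). Bmp7 was also higher in 9 of 9, with 26.0 to 74.7 CPM (median 33.6) against 16.6 to 24.9 (median 19.5), so that the marker-high values all lay above the others (0.84, standard error 0.16, edgeR adjusted p = 0.00102). Id2, which many epithelia express, rose by 0.32 (edgeR adjusted p = 0.0082; higher in 7 of 9). That made 3 of 7 tested members higher beside 1.49% of all genes, and Id2 was lost without E10 50 µm replicate 1 (0.106) or 2 (0.07) and in the top 20% of pixels (0.125). Of 22 other pathway genes, Sostdc1, a secreted inhibitor of BMP and Wnt known from skin and teeth, rose by 2.03 (edgeR adjusted p = 0.00635; higher in 9 of 9, median 24.0 against 5.96 CPM). Bambi, a decoy receptor that BMPs themselves induce, rose by 0.68 (0.0082), and Id4 fell by 0.58 (0.0169); without E10 50 µm replicate 2 or 3 or E11 25 µm replicate 2, Id4 did not pass (0.0514 to 0.0828). In these pixels all 7 neural progenitor markers (median log2 -0.76) and all 7 neuron markers (median -0.65) were lower, 3 of each called.

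Heart muscle marker-high pixels (10 libraries) held more Bmp7. Its level there was 39.3 CPM in E10 10 µm replicate 1, 39.7 in E10 25 µm, 18.4, 58.7 and 45.6 in E10 50 µm, 12.2 and 99.4 in E11 10 µm, 89.1 and 48.6 in E11 25 µm, and 36.2 at E12. In the other pixels it was 14.3 to 26.8 CPM (median 19.2). Bmp7 was thus higher in 8 of 10 libraries, and lower in E10 50 µm replicate 1 and in the heart-poor E11 10 µm replicate 1. The log2 difference was 1.25 (standard error 0.29, edgeR adjusted p = 0.0166), 1 of 7 tested members beside 5.61% of all genes called higher, and it just missed without E10 50 µm replicate 2 (1.18, 0.0503). Bmp4 differed by 0.75 (edgeR adjusted p = 0.195) and Msx1 by -0.55 (0.369), and the other 4 members by -0.37 (Msx2) to 0.32 (Id2).

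In the same heart pixels, the feedback inhibitor Smad6, known from heart valves and vessels, rose in 10 of 10 libraries (log2 1.09, edgeR adjusted p = 0.00593; median 21 against 10.3 CPM), and Bambi rose by 0.90 (0.0179). Id4, an Id gene of neural tissue, fell in 10 of 10 (-0.99, 0.00254), and so did the type II receptor Acvr2b in 8 of 10 (-0.48, 0.0142). Bambi was lost without E10 50 µm replicate 1 or 2 or E11 25 µm replicate 1 (0.0524 to 0.0684). Endothelium markers were higher there (3 of 7 called, all 7 positive), and neuron markers lower (5 of 7 called). Whether those tissues carried Smad6 and Bambi was not tested.

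Bmp2 had too few counts in the heart pixels to enter that fit. In the 3 E10 50 µm sections it held 20.7, 10.9 and 51.3 CPM in heart marker-high pixels against 2.67, 1.31 and 2.67 CPM elsewhere, which is 18, 8 and 27 counts in 10% of the pixels against 28, 10 and 27 in the rest. Its level was thus higher in heart pixels of these 3 sections. It was not so in every section: E10 10 µm replicate 1 held 2.58 against 3.68 CPM (5 and 37 counts) and E12 10.3 against 22.3 CPM. E10 25 µm held 7.95 against 2.09 CPM from 1 and 3 counts, and the E11 libraries had 0 to 3 counts in heart pixels. In a fit with no filter on low counts, added once the values were known, the log2 difference over all 10 libraries was 1.42 (standard error 0.68, edgeR adjusted p = 0.332).

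At E12, Bmp2 lay instead with cartilage and sclerotome markers. In marker-high pixels of that list it held 63.6 CPM at E12 against 16.1 elsewhere, 45 of its 138 counts in 10% of the pixels. In the other 7 libraries it held 4.0 to 11.8 CPM against 1.84 to 4.8, and it was higher in 8 of 8. The log2 difference was 1.13 (standard error 0.28, edgeR adjusted p = 0.011), and 0.81 (0.177) without the E12 library. Bmp7 rose too, in 8 of 8 (25.4 to 47.7 against 17.1 to 24.8 CPM; log2 0.55, edgeR adjusted p = 0.022), so 2 of 10 members were higher beside 3.12% of all genes. Bmp7 was called in 6 of 12 alternatives, and not in the top 5% of pixels (0.184), with no filter (0.0743), or without E10 10 µm replicate 2, E10 50 µm replicate 1 or E11 25 µm replicate 1 or 2 (0.0632 to 0.0781). Nbl1, a secreted antagonist of the noggin kind, was higher in 8 of 8 (0.92, 0.0138), though not past the threshold without E10 50 µm replicate 1 (0.0864) or E11 25 µm replicate 2 (0.0657). Nog itself differed by 0.69 (0.657), and Id4 (-0.71, 0.00318; 0.252 in the top 20% of pixels) and Acvr2b (-0.33, 0.00497) fell. These pixels held less of neural progenitor markers (6 of 7 called lower, median -0.61) and neuron markers (5 of 7, median -0.66), and the part of that in the rise of Bmp7 and Bmp2 was not tested.

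Limb and lateral plate marker-high pixels (7 libraries) held more Bmp4 and more Id2. Bmp4 held 53.9, 105 and 125 CPM there in the E10 50 µm sections against 24.0, 50.1 and 44.4 elsewhere, 40.5 against 60.2 in E11 10 µm replicate 1, 87.5 and 127 against 68.2 and 64.3 in E11 25 µm, and 158 against 77.6 at E12. It was higher in 6 of 7 (log2 0.93, standard error 0.15, edgeR adjusted p = 0.0026). Id2 was higher in 7 of 7, at 101 to 304 CPM (median 217) against 67.1 to 198 (median 149), with a log2 difference of 0.54 (standard error 0.08, edgeR adjusted p = 0.000105). These 2 of 8 tested members stood beside 1.76% of all genes called higher, and both passed in all 11 alternatives. Among 23 pathway genes Bambi rose by 0.75 (edgeR adjusted p = 0.0419) but passed in only 4 of 11 alternatives (up to 0.194; lost by DESeq2, in the top 5% and 20%, and without E10 50 µm replicate 1 or 3 or either E11 25 µm replicate). Id4 fell by 0.90 (0.0107; 0.0628 without E10 50 µm replicate 1) and Acvr2b by 0.34 (0.0143; lost without any E10 50 µm replicate or E11 25 µm replicate 1, up to 0.121). Craniofacial markers were higher in these pixels (3 of 4 called), all 8 heart markers were positive (median 0.88, none called), and neural progenitor markers were lower (3 of 7 called, median -1.12). Their part in the rise of Bmp4 and Id2 was not tested.

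Msx1 in limb pixels had a mean log2 difference of 1.18 with a wide error (standard error 0.47, edgeR adjusted p = 0.341) (higher in 5 of 7). It held 96.2, 85.3 and 73.7 CPM in the limb pixels of the E10 50 µm sections against 79.6, 98.2 and 75.9 elsewhere. In E11 10 µm replicate 1 it held 215 against 144 CPM, in E11 25 µm 444 and 385 against 119 and 63.1, and at E12 281 against 51.8. The 3 E10 sections were thus level and all 4 later ones higher in pixels rich in this marker list. All 8 heart markers were also positive in these pixels over the 7 libraries, and the part of other tissue in the Msx1 values was not tested.

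Dorsal neural tube marker-high pixels (10 libraries) held more Msx2. It was higher in 9 of 10, at 6.98 to 31.2 CPM (median 13.7) against 3.23 to 15.1 (median 9.37), and lower in E11 10 µm replicate 1 (7.93 against 13.7). The log2 difference was 0.85 (standard error 0.19, edgeR adjusted p = 0.00872), 1 of 7 members beside 0.986% of all genes called higher, and it passed in 14 of 14 alternatives. Msx1 differed by 0.80 (edgeR adjusted p = 0.106; higher in 8 of 10). Bmpr1b, a type I receptor found in neural tube and cartilage, rose by 0.76 (0.0168), and was lost in the top 20% of pixels (0.216) and without E10 50 µm replicate 1 or 2 or E11 25 µm replicate 1 or 2 (0.0553 to 0.0794).

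**Figure D3:**
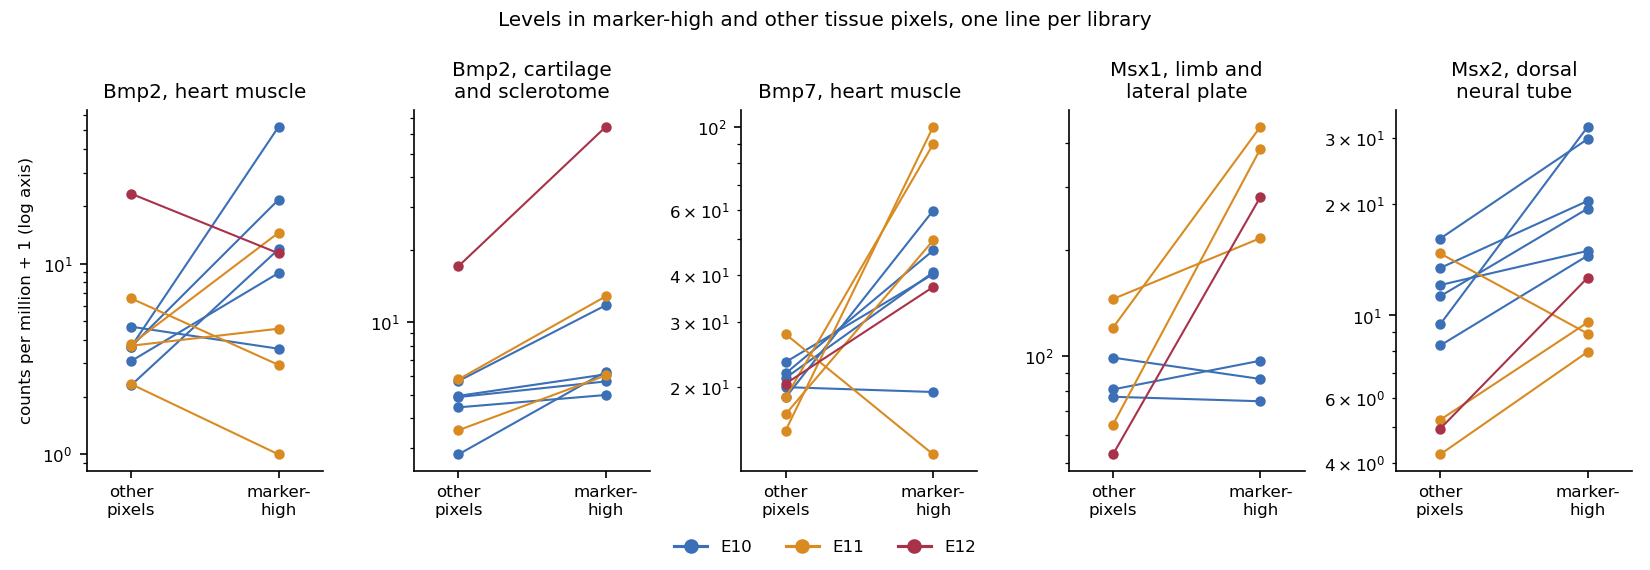
Level (CPM + 1, log axis) in marker-high pixels and in the other tissue pixels, a line per library, for Bmp2 by heart and by cartilage and sclerotome markers, Bmp7 by heart, Msx1 by limb and Msx2 by dorsal neural tube markers. Bmp2 is higher in heart pixels in the E10 50 µm sections and higher in cartilage pixels at E12 (63.6 against 16.1 CPM).

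Regions rich in neural progenitor or neuron markers held less Bmp4 and Msx1. In neural progenitor marker-high pixels (10 libraries) Bmp4 was lower in 10 of 10 (4.87 to 60.8 CPM, median 26.2, against 30.7 to 88.9, median 56.5; log2 -1.23, standard error 0.33, edgeR adjusted p = 0.0319). Bmp7 was lower in 9 of 10 (median 12.2 against 22.9 CPM; -0.86, standard error 0.23, edgeR adjusted p = 0.0153), and Msx1 in 10 of 10 (median 53.3 against 107 CPM; -1.05, standard error 0.26, edgeR adjusted p = 0.0243). These 3 of 7 members stood beside 8.31% of all genes called lower, and in these pixels all 7 heart, all 7 endothelium and all 8 red cell markers tested were also called lower. Msx1 just missed without E11 25 µm replicate 1 (0.0505), and Bmp4 without E10 25 µm, any E10 50 µm replicate or E11 10 µm replicate 1 (0.051 to 0.0656).

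Id1 (-0.03), Id2 (-0.18) and Id3 (-0.27, edgeR adjusted p = 0.0626) did not pass there, while their relative Id4 rose in 10 of 10 (0.85, edgeR adjusted p = 0.00419; median 72.4 against 47.9 CPM). The type II receptor Acvr2b also rose in 10 of 10 (0.55, 1.48e-05), and the vascular receptor Acvrl1 (-1.02, 0.00779) and Bambi (-0.99, 0.00619) fell. Of 20 pathway genes tested, 3 rose and 3 fell, the others being Acvr2a (0.39, 0.0248) and Smad6 (-0.72, 0.0288). Acvr2a passed in 9 of 14 alternatives (lost with no filter, 0.145, and without E10 50 µm replicate 1 or 2, E11 10 µm replicate 1 or E12, 0.0517 to 0.0592), and Acvrl1 missed in the top 5% of pixels (0.0537). Smad6 passed in 8 of 14 (lost by DESeq2, in the top 5%, and without E10 10 µm replicate 1, E10 50 µm replicate 2 or either E11 25 µm replicate, 0.0602 to 0.245).

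In neuron marker-high pixels (11 libraries) 4 of 7 members were lower, beside 15.1% of all genes. Heart (6 of 8), endothelium (6 of 7), cartilage and sclerotome (4 of 4) and red cell markers (8 of 8) were also called lower there. The part of this tissue difference in the lower members was not tested. Bmp4 fell by 0.92 (edgeR adjusted p = 0.00226; lower in 9 of 11), Msx1 by 0.67 (4.61e-06; 10 of 11), Id3 by 0.36 (0.000257; 10 of 11) and Id1 by 0.32 (0.0359; 8 of 11). Bmp7 (-0.21, 0.308), Id2 (-0.36, 0.0854) and Msx2 (-0.61, 0.0709) did not pass. Bmp4, Msx1 and Id3 passed in all 15 alternatives and Id1 in 8, the lost ones being DESeq2 (0.0921), the top 20% of pixels (0.263) and the omission of E10 10 µm replicate 2, E10 50 µm replicate 1 or 3, E11 10 µm replicate 1 or E12 (0.0523 to 0.188). Among the pathway genes, Gdf11, a ligand known to limit neuron number, rose in 11 of 11 (0.73, edgeR adjusted p = 3.75e-06). Among the others, Bmpr1a (-0.37, 0.00243), Bambi (-0.88, 0.000894) and Smad6 (-0.79, 0.0121) fell, and Acvr2a (0.45, 0.00246) and Acvr2b (0.25, 0.00351) rose. Smad6 was lost by DESeq2 (0.0544) and in the top 20% of pixels (0.111), Bmpr1a in the top 5% (0.0727) and Acvr2b with no filter (0.0797). Less firm were Smad1 (0.33, 0.0221; 11 of 15 alternatives), Bmpr2 (0.21, 0.0316; 9 of 15) and Fst (-0.67, 0.0315; 8 of 15, and -0.02 in the top 20%). Smad1 was lost without E10 10 µm replicate 1 or E10 50 µm replicate 2 (0.0712 to 0.0769), by DESeq2 (0.102) and with no filter (0.112), and Bmpr2 and Fst without E10 10 µm replicate 1 or any E10 50 µm replicate. Bmpr2 was also lost without E11 25 µm replicate 2 and Fst without E12 (0.0554 to 0.141 over these omissions), and Bmpr2 with no filter (0.416) and Fst by DESeq2 (0.0985).

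No member was called in the remaining lists. In endothelium marker-high pixels 11.4% of genes were called (1223; 2380 at an unadjusted p under 0.05, edgeR) and none of 7 members (-0.38 for Msx2 to 0.28 for Bmp4), while Acvrl1, the type I receptor of endothelium, rose by 1.43 (edgeR adjusted p = 5.48e-05; higher in 9 of 10). Bmpr1b (-0.91, 0.00128), Acvr2b (-0.52, 0.0011), Id4 (-0.69, 0.00274) and Acvr2a (-0.46, 0.0205) fell there. Acvr2a was lost without E10 10 µm replicate 2, E10 50 µm replicate 2 or E11 25 µm replicate 2 (0.0519 to 0.097), and Id4 in the top 20% of pixels (0.0583). In craniofacial pixels 2.98% were called (384; 1578 unadjusted) and none of 10 members, with Msx1 at 0.96 (edgeR adjusted p = 0.459) and Bmp4 at 0.69 (0.227), both higher in 6 of 7 libraries. Nbl1 rose there by 1.04 (edgeR adjusted p = 0.00817; 0.0846 without E10 50 µm replicate 1 and 0.0543 in the top 5% of pixels) and Acvr2b fell by 0.28 (0.00427; 0.0725 without E10 50 µm replicate 3). In floor plate and notochord pixels 0.248% were called (32; 1227 unadjusted) and none of 10, with Msx1 lower in 6 of 6 (-0.83, 0.355).

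**Figure D4:**
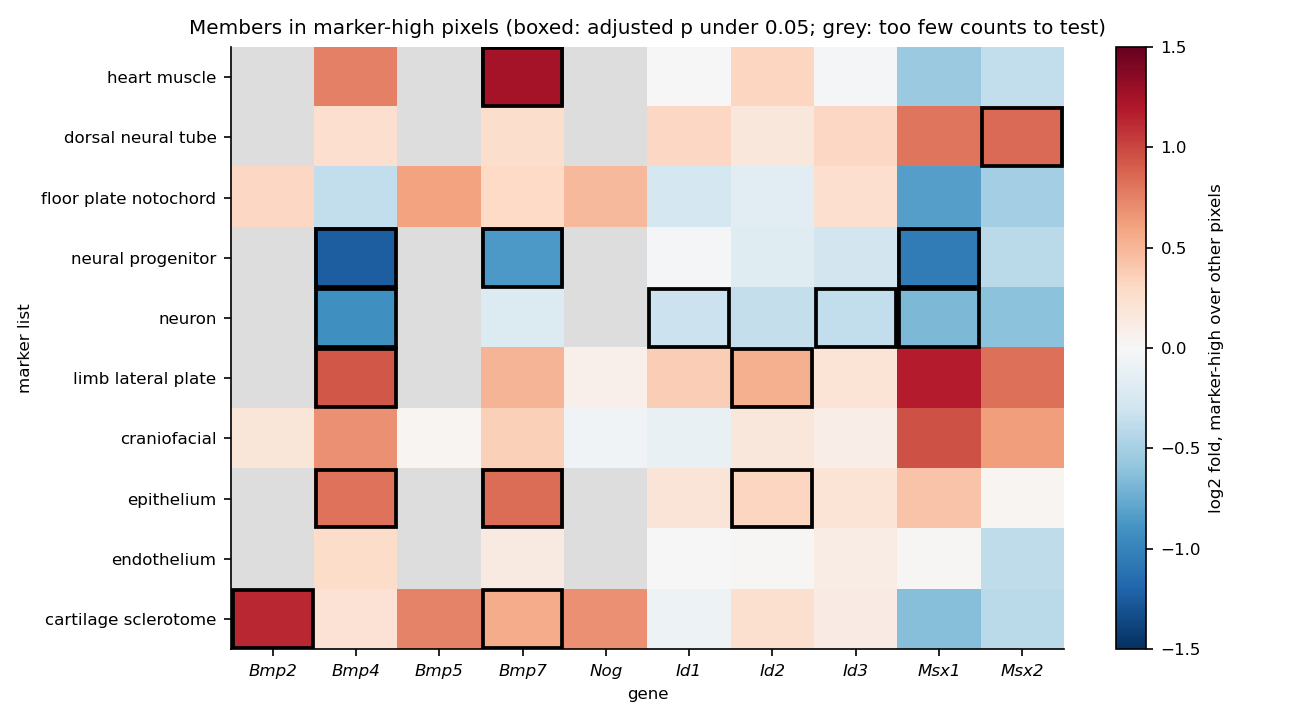
Log2 difference of each gene between marker-high and other tissue pixels for 10 marker lists; boxes mark an edgeR adjusted p under 0.05 and grey cells too few counts. Bmp4 and Bmp7 are higher by epithelium markers and lower by neural progenitor markers, and Msx2 is higher by dorsal neural tube markers.

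Relations of ligands to targets were then read pixel by pixel, from pixels with at least 1 count of a ligand and as many pixels with none, balanced for total count within a library. Bmp4 gave 2508 such pixels in 11 libraries. Id3 held 194, 599, 329, 262, 138 and 224 CPM in Bmp4 pixels of the 6 E10 libraries (10 µm, 25 µm, then 50 µm) against 171, 434, 377, 187, 125 and 215 in pixels without. In E11 it held 182 and 275 CPM at 10 µm and 310 and 322 at 25 µm against 122, 181, 180 and 211, and at E12 199 against 145. Id3 was therefore higher in 10 of 11 libraries, E10 25 µm being the exception. The log2 difference was 0.37 (standard error 0.06, edgeR adjusted p = 0.000803), 1 of 7 members beside 0.749% of all genes called higher, and it passed in 15 of 15 alternatives, at 0.32 to 0.42.

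The other targets did not pass: Id1 was higher by 0.23 (edgeR adjusted p = 0.367), Id2 by 0.23 (0.356), Msx2 by 0.24 (0.845) and Msx1 by 0.65 (0.317). Msx1 was higher in 9 of 11 and lower in 1, and had no count in either set in E11 10 µm replicate 2. The gap was widest in 2 sections, with 194 against 31.4 CPM at E12 and 264 against 101 in E11 10 µm replicate 1. It passed without the E12 library (0.45, 0.00366) and when pixels next to a Bmp4 pixel were read instead (0.65, 0.0206). Id2 passed in 3 of 15 alternatives (edgeR adjusted p down to 0.0247), 1 of them without E10 50 µm replicate 3 (0.32, 0.0446). Bmp7 (0.28, 0.487) and Nog (-0.01, 1.000) did not differ detectably.

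Bambi rose in Bmp4 pixels by 0.70 (edgeR adjusted p = 0.0147; higher in 9 of 11, median 21.5 against 13.6 CPM), 1 of 23 pathway genes tested. It was lost in the neighbouring pixels (0.270) and without E11 25 µm replicate 1 (0.0542) or 2 (0.125). The same Bmp4 pixels held less of neural progenitor markers (3 of 7 called lower, none positive, median log2 -0.36) and of neuron markers (1 of 7 called lower, none positive, median -0.48). They held more of limb markers (2 of 3 tested called higher, median 0.56). The part of this tissue difference in the rise of Id3 and Bambi was not tested.

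**Figure D5:**
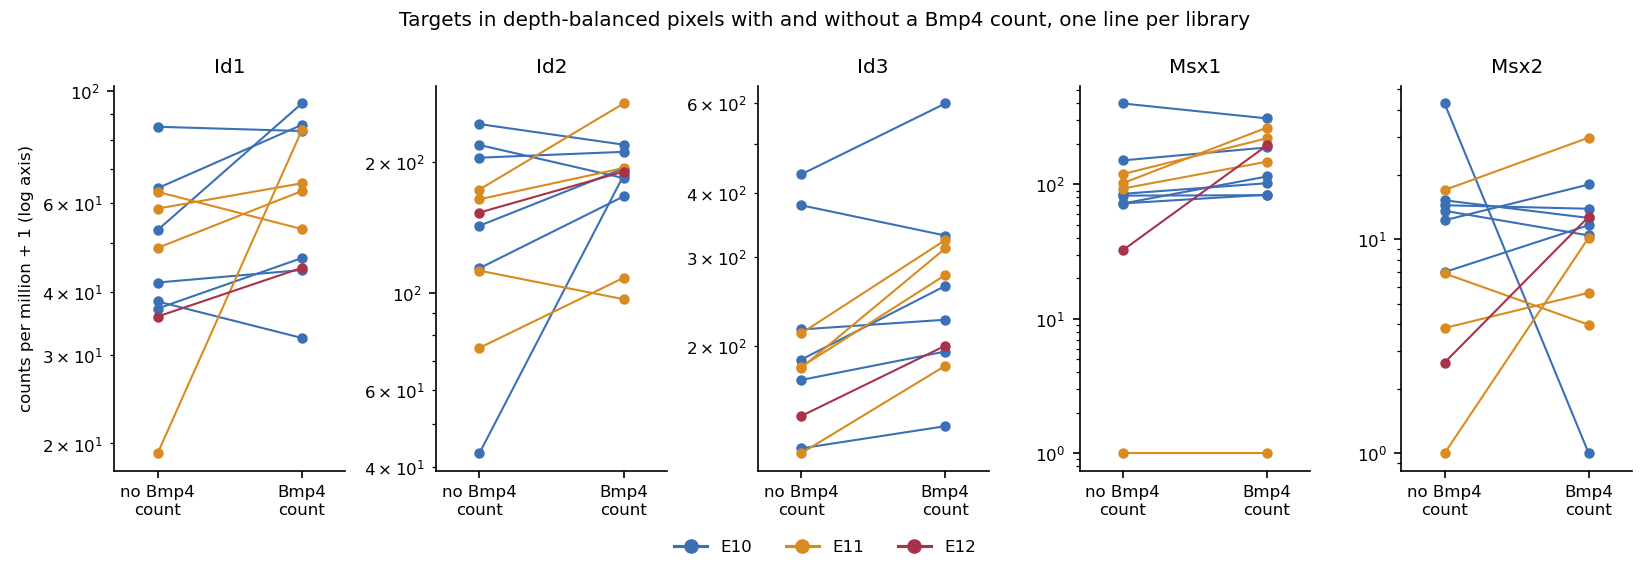
Id1, Id2, Id3, Msx1 and Msx2 (CPM + 1, log axis) in pixels with and without a Bmp4 count, balanced for total count, a line per library. Id3 is higher with Bmp4 in 10 of 11 libraries, and Msx1 differs most at E12 (194 against 31.4 CPM).

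Bmp7 pixels (1328 in 11 libraries) held more Bmp4, at 28.2 to 136 CPM (median 55.0) against 18.7 to 83.7 (median 45.8), higher in 9 of 11. The log2 difference was 0.59 (standard error 0.12, edgeR adjusted p = 0.00217), 1 of 5 members beside 0.257% of all genes called higher. The E12 library gave the widest gap (136 against 53.9 CPM), and without it Bmp4 missed the threshold (0.49, 0.0526), as it did without E10 50 µm replicate 3 (0.54, 0.053), without balancing (0.30, 0.112) and in neighbouring pixels (0.11, 0.942). The 4 targets tested did not pass in Bmp7 pixels: Id1 differed by -0.06, Id2 by 0.15, Id3 by -0.00 and Msx1 by 0.19 (edgeR adjusted p from 0.826 to 1.000). Heart markers were higher in Bmp7 pixels (3 of 7 called, all 7 positive, median 0.94).

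Pixels of the 3 thinner genes were few. Bmp2 pixels (295 in 6 libraries) had 0.0145% of genes called (1, and 310 at an unadjusted p under 0.05) and none of 5 members by edgeR. Id1 differed there by 0.55 (edgeR adjusted p = 0.993, higher in 6 of 6), Id3 by 0.48 (0.526) and Bmp4 by 0.70 (0.875). For Nog, 379 pixels in 8 libraries had 0.0167% called (1; 255 unadjusted) and none of 5 members, with Id3 at 0.24 (0.999) and higher in 8 of 8. For Bmp5, 139 pixels in 4 libraries had 0.0691% called (3; 292 unadjusted) and none of 4.

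Correlations over pixels were small, as described by Pearson's r of log2(count per 10000 + 1) within each library, whose pixels share depth and neighbours. For Bmp4 the median r over 11 libraries was 0.0325 with Id1, 0.0459 with Id2, 0.0546 with Id3 and 0.0289 with Msx1, each above 0 in 10 of 11. With Msx2 it was 0.0293, above 0 in 8 of 11. Over 5 by 5 blocks (37 to 100 per library), the medians for Bmp4 were 0.330 with Id3 (above 0 in 10 of 11) and 0.243 with Msx1 (9 of 11). They were lower with Id2 (0.177, 9 of 11), Msx2 (0.091, 8 of 11) and Id1 (0.0835, 7 of 11). The block r of Bmp4 with Msx1 ran from -0.181 in E10 50 µm replicate 3 to 0.484 at E12. It was 0.0278 and 0.0461 in E10 50 µm replicates 1 and 2. Msx1 and Msx2 had a median block r of 0.403 (9 of 11) and Id2 and Id3 one of 0.295 (11 of 11), while Bmp7 and Id1 had -0.170 (above 0 in 1 of 11).

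The genes whose pixel pattern was most like each member were listed by mean r over the libraries where the member reached 5% of pixels. For Bmp7 they were Tnni1 (0.0925), Tnnt2 and Actc1, and for Bmp2, over 3 libraries, Myh6 (0.224), Ttn and Myl7, all genes of muscle contraction. The r of Bmp2 differed widely between its 3 libraries, from -0.0209 to 0.472 with Myh6, 0.0605 to 0.419 with Ttn and -0.0193 to 0.438 with Myl7. For Msx1 the most alike genes were Crabp1 (0.0967), Prrx1 and Ahnak, for Msx2, over 4 libraries, Msx1 (0.0983), Zic1 and Myo1e, and for Bmp4 Peg3 (0.124), Sparc and Cnn2. Among the Id genes they were Id2 (0.0657), Id3 and Rpl23a for Id1, Id3 (0.0890), Mdk and Tgfb2 for Id2, and Peg3 (0.0907), Id2 and Igfbp5 for Id3.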

How the data were processed

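Per the labels' protocols, frozen sections gave Nextera XT libraries that were read in pairs on a HiSeq instrument. Counts by gene and pixel were deposited by the authors for each of the 11 transcript libraries, and no normalization was seen in these whole numbers. The submitters' processing notes name CASAVA 1.8.2 and a human genome build, which cannot be squared with mouse gene symbols. Aligner, annotation, strand and collapsing of duplicates are not given in the sources used here. The 4 antibody libraries were not used.

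The members, marker lists and tests were chosen with earlier results of these data known. Of 16 columns under Ensembl identifiers, 15 were matched to symbols. Counts of tissue pixels were summed per library, and CPM are counts divided by these sums and multiplied by 1e6. Replicates differed by 24.6 to 70.0 times what counting noise allows (chi-square over degrees of freedom, 6 pairs), so no library was a copy. Sums were tested with edgeR 4.0.16 (limma 3.58.1, R 4.3.3; TMM, default filter on low counts, robust quasi-likelihood fit, 6 group means, 5 residual degrees of freedom), two-sided, with Benjamini-Hochberg adjustment over all genes tested and 0.05 as the threshold. The spread of the single E12 library was taken to equal that of the others. Pixel sets were fitted with the library as block, with at least 20 pixels per set, or 3 libraries with a score Moran's I of at least 0.1 per marker list. Marker scores were mean Pearson residuals of counts, limited to 10. Moran's I used the 4 grid neighbours. DESeq2 1.42.0, no filter, other pixel sets and the omission of each library were alternatives. By rule, the genes named are the 10 members (in some comparisons by range, or in the plots only), the called genes of a BMP pathway list of 34 and, for each member, the 3 genes most alike over pixels. Of the genes this rule selects, 1 is not reported here. The script was tested on simulated data.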

Additional observations from a re-analysis of the deposited data

How the results depend on the processing

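Of 1123 values recomputed for single genes, 954 kept their direction and their side of the threshold, 123 lost the threshold, 44 gained it and 2 changed direction. Both are Msx1 without E11 10 µm replicate 2, at 0.35 for E11 against E10 at 10 µm and 0.16 between widths at E11, and neither passed there. Without E11 10 µm replicate 1 the same values were -4.28 and -4.46. The number of members called moved as follows, and the cause was not tested. With no filter on low counts, which for marker-high pixels was chosen after seeing the data, it was 1 for E11 against E10 over both widths and at 10 µm, 2 in Bmp4, dorsal neural tube and floor plate pixels, 7 in neural progenitor and in neuron pixels, and 1 in craniofacial and in cartilage pixels. DESeq2 gave 2 in dorsal neural tube pixels and 1 in floor plate and in craniofacial pixels. All pixels gave 0 at E12, and Bmp4 pixels gave 2 when not balanced or when neighbours were read, against 0 for Bmp7 pixels in both. The top 20% of pixels gave 2 in floor plate and 5 in limb pixels, and the top 5% gave 1 in cartilage pixels.

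Leaving out 1 library at a time gave 0 to 2 called members for E11 against E10 over both widths, 0 to 1 at 10 µm, 0 to 1 between widths at E11 and 0 to 1 at E12. It gave 1 to 2 in Bmp4 pixels, 0 to 1 in Bmp7 pixels, 0 to 1 in heart pixels, 1 to 2 in dorsal neural tube pixels, 0 to 1 in floor plate pixels, 2 to 4 in neural progenitor pixels and 3 to 6 in neuron pixels. It gave 2 to 3 in limb pixels, 0 to 2 in craniofacial pixels, 2 to 4 in epithelium pixels and 1 to 2 in cartilage pixels. In craniofacial pixels Bmp4 passed without E10 50 µm replicate 2 (edgeR adjusted p = 0.0351) or E12 (0.0149), and Msx1 without E12 (0.0441). The number stayed at 0 in every omission for width at E10 and for Bmp2, Bmp5, Nog and endothelium pixels.

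Counts over all genes moved with the library left out: 144 to 1465 for the 656 calls over both widths, 190 to 1258 for the 608 at 10 µm, 0 to 164 for the 20 between widths at E10, 33 to 463 for the 378 at E11, 98 to 969 for the 390 at E12 and 54 to 187 for the 149 in Bmp4 pixels. Other settings gave up to 1988, 1835, 731, 870, 1328 and 331. With the replicate block at E11, where numbers name sections only (correlation of same-numbered deviations 0.0565), the number of members called between widths was 0. Depth limited Bmp2, Bmp5 and Nog, with 391, 262 and 434 counts in all.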

Other observations

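The Msx1 values in limb and lateral plate marker-high pixels are set side by side for E10 and later sections, a split chosen after they had been seen and therefore given with no test. The log2 ratio of marker-high to other pixels (1 CPM added) averaged 0.009 in the 3 E10 sections (-0.201 to 0.269) and 1.867 in the 4 later sections (0.572 to 2.59), a difference of 1.858. All 3 E10 sections and the E12 section had 50 µm pixels, and 3 of the 4 later sections had narrower ones. At equal width the E12 ratio also lay above the E10 range, but it comes from 1 library. Stage cannot be told apart from embryo or body region.

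Id4, the Id gene outside the 10, was called in 6 marker lists, with the opposite sign to Bmp4 in each. It was lower in heart (10 of 10 libraries), limb (7 of 7), epithelium (8 of 9), endothelium (9 of 10) and cartilage (7 of 8) marker-high pixels and higher in neural progenitor pixels (10 of 10). Bmp4 itself was called in 3 of these lists (limb, epithelium and neural progenitor). Bambi had the same sign as Bmp4, where both were called, in the epithelium, limb, neural progenitor and neuron lists, though in limb it passed in only 4 of 11 alternatives.

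With no filter on low counts, 2 of the thinner ligands also passed in neural progenitor pixels. Bmp2 was lower by 1.21 on the log2 scale (edgeR adjusted p = 0.00345) and Bmp5 by 1.74 (0.000481), and Bmp2 was also lower in neuron pixels (-0.93, 0.0319) and higher in limb pixels (0.93, 0.0456). These fits were chosen after seeing the data, and their share of all genes called is not given here. In neural progenitor pixels 7 members passed with no filter, against 3 with it. The standard error of Bmp4 there was 0.12 with no filter (edgeR adjusted p = 3.28e-25) and 0.33 with it (0.0319). Passes of Bmp2 and Bmp5 with no filter are therefore not comparable with calls in the main fits.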
